A study of Mus musculus with 40 samples.

Results

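The libraries described here compare wild-type Bmal1 with a Bmal1 that cannot bind DNA, each put back into melanoma cells that have no working Bmal1 of their own. They are 4 of the 40 libraries of the series, chosen by their labels: 2 libraries of cells with wild-type Bmal1 (WT-Bmal1) and 2 of cells with Bmal1 lacking the basic helix-loop-helix domain (dHLH-Bmal1, which the labels abbreviate as bH or bHLH). The cells are aC3, a single Bmal1-null clone made by CRISPR editing of the mouse melanoma line YUMM2.1, which carries activated mutant Braf, 1 Cdkn2a allele and a stabilized beta-catenin, among other alterations. All of these alterations, the loss of Bmal1 included, were shared by both groups. Per the study's methods, the aC3 cells already carried a luciferase reporter driven by the Bmal1 promoter, delivered by lentivirus and selected with blasticidin. The construct was delivered by a lentivirus that also encodes GFP, and GFP-positive cells were sorted. The study names a single sorted line for each construct, so differences between the lines cannot be told apart from those between the constructs. A further 2 libraries of aC3 cells with empty vector (EV) serve as the level without any Bmal1. RNA was measured with a 3′ protocol that reads each transcript near its end, so a count follows the number of transcripts more than their length. The study calls the aC3 samples duplicates and gives n = 2 for its RNA-seq. The sources used here do not say whether the aC3 replicates came from separate cultures. The p-values therefore measure only the spread between these libraries, which may be technical. In bulk libraries fewer cells with a transcript and less of it per cell cannot be told apart.

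Bmal1, the product of Arntl, pairs with Clock to form the activator of the circadian clock, and the pair binds the E-box of its target promoters through the basic helix-loop-helix domains. Among the targets are the repressors of the loop (the Per and Cry genes), the REV-ERB nuclear receptors Nr1d1 and Nr1d2, which silence genes with a ROR element such as Arntl, Npas2, Cry1 and Nfil3, and the PAR bZIP factors Dbp, Tef and Hlf, which act through the D-box. The comparison therefore asks which transcripts differ when the Bmal1 present can or cannot bind DNA. The study describes dHLH-Bmal1 as still able to pair with Clock and as blocking transcription by a cell's own Clock and Bmal1. It also describes the mutant as keeping an activity that stimulates translation, so dHLH-Bmal1 is not an inert control.

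The 4 libraries held between 9347467 and 10153044 counts in total, and EV from 10734288 to 11006516. The dHLH-Bmal1 libraries differed from each other more than the other pairs did, with a chi-square per degree of freedom of 11.6 over genes against 3.93 for WT-Bmal1 and 4.09 for EV. Of the markers of a melanocyte lineage, Sox10 had 5130 to 6220 counts and Mitf 115 to 159 in the 4 libraries, whereas Tyrp1, Dct and Mlana were at 0 in all 6 libraries and Tyr and Pmel had at most 4 counts. Marker lists of other cell types were low, with summed counts in the 6 libraries of 14 to 33 over 10 leukocyte genes, 75 to 129 over 6 endothelial genes (mostly from Pecam1), 25 to 54 over 6 keratinocyte genes and 1 to 6 over 7 adipose and muscle genes.

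Of 13790 genes tested, 121 differed between WT-Bmal1 and dHLH-Bmal1 at an edgeR adjusted p under 0.05, which is 0.877% of the genes tested. Of these, 61 were higher with WT-Bmal1 (0.442%) and 60 were lower (0.435%). The higher genes had the larger changes: 22 exceeded a log2 fold change of 1 and 12 exceeded 2, against 15 and 3 of the lower genes. At an unadjusted p under 0.05 there were 1638 genes. The median change was 0.75 among the higher genes and -0.64 among the lower ones, and the median over all genes tested was 0.0013. In all 121 the libraries of the groups did not overlap, as was the case for 41.1% of all genes tested. The lists of clock activators, E-box driven genes, ROR element driven genes and clock outputs held 34 genes, of which 31 were tested and 10 passed (32.3%, against 0.877% of all genes tested): 7 were higher and 3 lower with WT-Bmal1. These lists were drawn up with earlier results of these data known, so the count is a description. The remaining 111 genes, 54 higher and 57 lower, lay outside them. How many genes passed depended on single libraries: 31 passed without WT-Bmal1 replicate 1, 39 without WT-Bmal1 replicate 2 and 368 without dHLH-Bmal1 replicate 2.

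**Figure D1:**
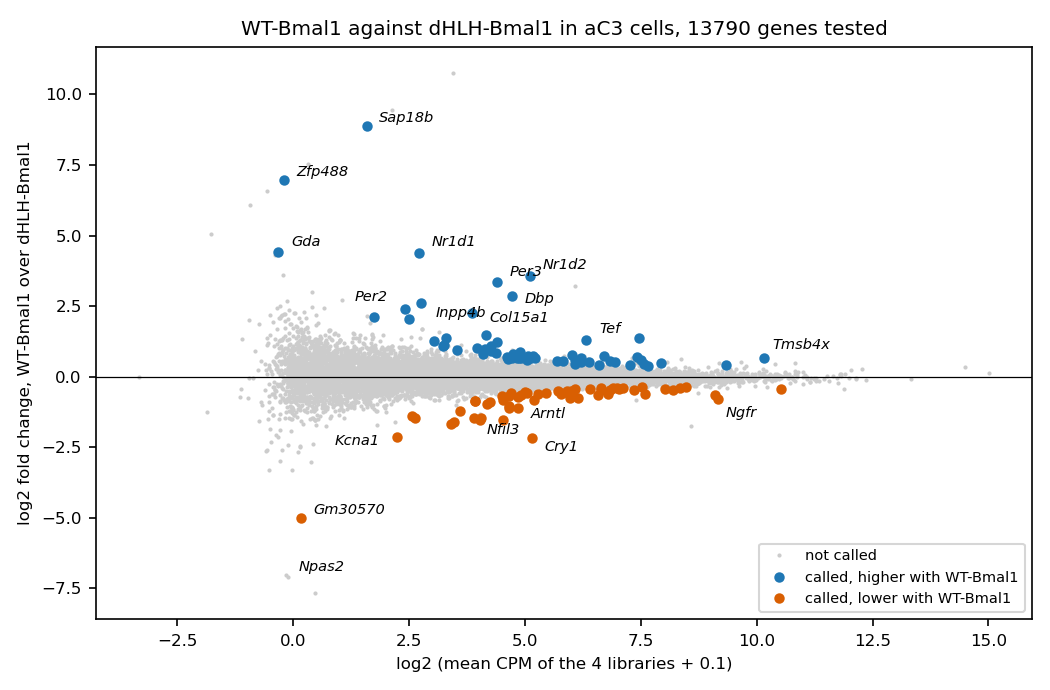
Log2 fold change of WT-Bmal1 over dHLH-Bmal1 (y axis) against the log2 mean level in the 4 libraries (x axis, log2 of CPM + 0.1) for the 13790 genes tested in aC3 cells. Blue points are the 61 genes called higher and orange points the 60 called lower with WT-Bmal1. Nr1d1, Nr1d2, Per3, Dbp and Per2 lie at 2.40 to 4.39 and Cry1 at -2.19, while the cloud of all genes centres at 0.0013.

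The E-box driven clock genes held large increases. Nr1d1, which encodes the nuclear receptor REV-ERB alpha, was at 11.2 and 13.4 CPM (counts per 1000000 of the scaled library size) in the WT-Bmal1 libraries, 0.498 and 0.66 CPM with dHLH-Bmal1, and 1.93 and 2.2 CPM with EV. The WT-Bmal1 libraries were thus the highest, the dHLH-Bmal1 libraries the lowest and the EV libraries in between, with no overlap of the groups. The log2 fold change of WT-Bmal1 over dHLH-Bmal1 was 4.39 (standard error, SE, of 0.36, edgeR adjusted p = 1.59e-05), a 21.3-fold difference in mean CPM. It rested on 5 and 6 counts in the dHLH-Bmal1 libraries. Its paralogue Nr1d2 (REV-ERB beta) had far more reads and the same order: 63.2 and 64.5 CPM with WT-Bmal1, 5.18 and 5.50 CPM with dHLH-Bmal1, and 19.9 and 23.1 CPM with EV. Both WT-Bmal1 libraries were well above EV and both dHLH-Bmal1 libraries well below it. The direct difference was 3.58 on the log2 scale (SE 0.14, edgeR adjusted p = 4.81e-09), 11.9-fold in mean CPM.

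Per3, a period gene, was at 38.1 and 38.2 CPM with WT-Bmal1, at 4.68 and 2.75 CPM with dHLH-Bmal1 and at 8.83 and 7.16 CPM with EV. Again dHLH-Bmal1 was the lowest group without overlap. The log2 fold change was 3.34 (SE 0.21, edgeR adjusted p = 7.65e-07). Dbp, a PAR bZIP factor, was at 46.5 and 45.4 CPM with WT-Bmal1, 6.18 and 6.60 CPM with dHLH-Bmal1 and 7.54 and 8.21 CPM with EV. Here the dHLH-Bmal1 and EV libraries lay close together, and only the WT-Bmal1 libraries stood apart. The difference between the constructs was 2.85 (SE 0.15, edgeR adjusted p = 1.27e-07) on the log2 scale. Per2, the period repressor with the best known role in the loop, was at 9.38 and 8.26 CPM with WT-Bmal1, 2.19 and 1.10 CPM with dHLH-Bmal1 and 1.10 and 1.24 CPM with EV. The dHLH-Bmal1 and EV libraries overlapped, and WT-Bmal1 was above both. Its log2 fold change was 2.40 (SE 0.36, edgeR adjusted p = 0.0052), which became an adjusted p = 0.104 without WT-Bmal1 replicate 1. Tef, a second PAR bZIP factor, was at 112 and 117 CPM with WT-Bmal1, 47.6 and 44.6 CPM with dHLH-Bmal1 and 48.1 and 40.8 CPM with EV, and rose by 1.31 (SE 0.10, edgeR adjusted p = 9.63e-06). The third, Hlf, fell under the filter on low counts, with 3 and 4 counts in the WT-Bmal1 libraries and none in the dHLH-Bmal1 or EV libraries. It was at least 2.26-fold higher with WT-Bmal1 when the dHLH-Bmal1 libraries together are set at 3 counts.

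Not every E-box driven gene passed. Of the 12 tested, 6 were higher with WT-Bmal1, 1 was lower (Cry1, which also has ROR elements) and 5 did not pass, and the median log2 fold change was 0.91. Bhlhe40, a helix-loop-helix repressor of the loop, was the nearest to the threshold, at 38.3 and 40.1 CPM with WT-Bmal1 and 26.9 and 28.1 CPM with dHLH-Bmal1 (log2 fold change 0.51, SE 0.11, edgeR adjusted p = 0.0504). Without dHLH-Bmal1 replicate 2 its adjusted p was 0.0426, and with no filter on low counts 0.0156. For Per1, Bhlhe41, Ciart and Cry2 the log2 fold changes were 0.26, 0.44, 0.37 and -0.12, with SEs of 0.30, 0.29, 0.31 and 0.18 and adjusted p from 0.593 to 0.859. The libraries of the groups overlapped in Per1, with 5.03 and 8.15 CPM against 5.98 and 4.95 CPM. For these genes a difference was not detectable. Per1, Bhlhe41 and Ciart had between 38 and 77 counts in each of the 4 libraries, and Cry2 between 158 and 215.

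**Figure D2:**
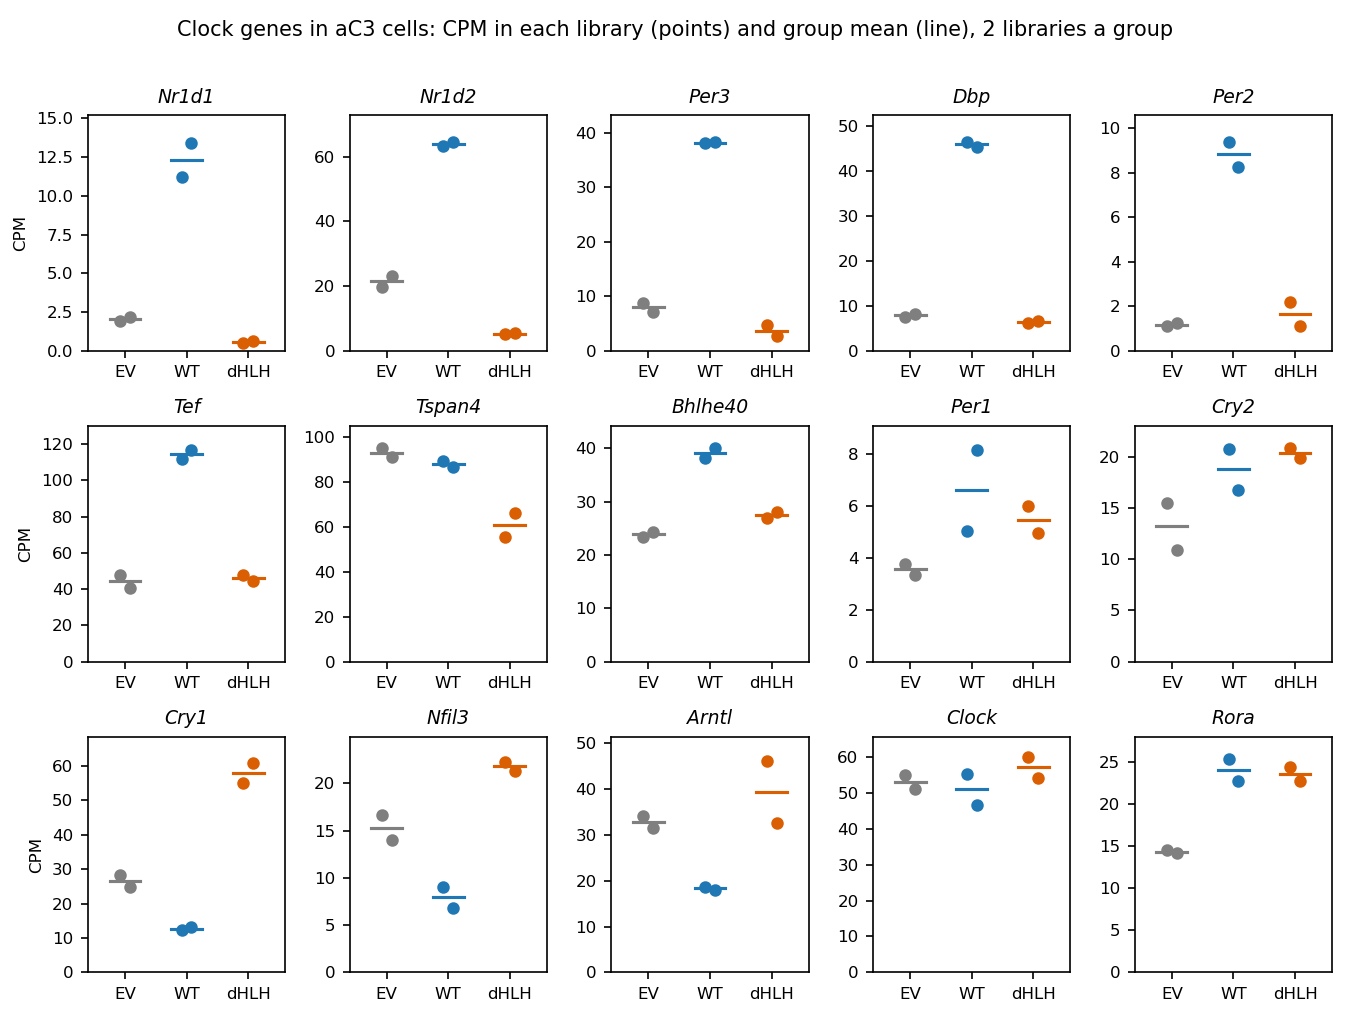
CPM (y axis, from 0) of 15 clock genes in each of the 6 aC3 libraries (points) with the mean of each group (line), for EV, WT-Bmal1 and dHLH-Bmal1. Nr1d1, Nr1d2, Per3, Dbp, Per2 and Tef are highest with WT-Bmal1, Cry1, Nfil3 and Arntl are lowest with it, and Clock, Cry2 and Rora differ little between the constructs.

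The clock genes that were lower with WT-Bmal1 were the ROR element driven Cry1, Nfil3 and Arntl. Cry1, the strongest repressor of the Clock and Bmal1 pair, was at 12.2 and 13.2 CPM with WT-Bmal1, 55.0 and 60.9 CPM with dHLH-Bmal1 and 28.3 and 24.8 CPM with EV. Here the order was turned round, with dHLH-Bmal1 the highest, EV in between and WT-Bmal1 the lowest, and no overlap. It was 4.56-fold higher in mean CPM with dHLH-Bmal1, and the log2 fold change of WT-Bmal1 over dHLH-Bmal1 was -2.19 (SE 0.13, edgeR adjusted p = 3.52e-07). Nfil3, a repressor that competes with the PAR bZIP factors for the D-box, was at 9.09 and 6.78 CPM with WT-Bmal1, 22.3 and 21.3 CPM with dHLH-Bmal1 and 16.6 and 14.0 CPM with EV, a log2 fold change between the constructs of -1.45 (SE 0.19, edgeR adjusted p = 0.00201).

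Arntl itself was at 18.7 and 18 CPM with WT-Bmal1, 46.1 and 32.5 CPM with dHLH-Bmal1 and 34.0 and 31.4 CPM with EV. The WT-Bmal1 libraries were the lowest, and the dHLH-Bmal1 and EV libraries overlapped. The log2 fold change was -1.10 (SE 0.16, edgeR adjusted p = 0.00287). Whether the reads of this row come from the edited locus on chromosome 7 or from the construct cannot be told apart in the counts, and the row does not check the labels. Npas2, which can take the place of Clock in the pair, had 0 and 0 counts with WT-Bmal1, 18 and 13 counts with dHLH-Bmal1 and 4 and 0 counts with EV. It was at least 10.7-fold lower with WT-Bmal1, setting the WT-Bmal1 libraries together at 3 counts, but the edgeR adjusted p was 0.0612 and it did not pass. It passed with no filter on low counts (adjusted p = 0.00449) and in a fit of the 4 libraries alone (adjusted p = 0.0387). Of 7 ROR element driven genes tested, 3 were lower, none was higher, and the median log2 fold change was -1.10. Clock, Rora and Rorb had log2 fold changes of -0.16, 0.03 and -0.20 (SEs 0.11, 0.14 and 0.09, adjusted p from 0.368 to 0.962) and did not pass. Rorb was at 138 and 130 CPM with WT-Bmal1 and 156 and 152 CPM with dHLH-Bmal1.

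Against EV, the constructs moved several of these genes in opposite directions. Both comparisons use the same EV libraries, so the values are set side by side. Nr1d1 changed by 2.57 with WT-Bmal1 (edgeR adjusted p = 0.000118) and by -1.82 with dHLH-Bmal1 (adjusted p = 0.0168). Nr1d2 changed by 1.57 (adjusted p = 4.40e-06) and -2.01 (adjusted p = 1.58e-05), and Per3 by 2.25 (adjusted p = 9.46e-06) and -1.09 (adjusted p = 0.0106). Cry1 went the other way, by -1.06 with WT-Bmal1 (adjusted p = 0.000279) and by 1.12 with dHLH-Bmal1 (adjusted p = 0.00013). The larger part of the direct difference in Dbp, Per2 and Tef lay on the side of WT-Bmal1: they had log2 fold changes of 2.54, 2.90 and 1.36 with WT-Bmal1 and of -0.30, 0.50 and 0.05 with dHLH-Bmal1 against EV, and the latter changes did not pass (adjusted p from 0.299 to 0.798). In Nfil3 and Arntl the change with WT-Bmal1 was -0.95 and -0.83 (adjusted p = 0.00613 and 0.00356), whereas the dHLH-Bmal1 changes of 0.51 and 0.27 did not pass (adjusted p = 0.0812 and 0.269). Rora rose with either construct, by 0.75 and 0.72 (adjusted p = 0.00384 and 0.00575), and a difference between them was not detectable. Over all genes, 1544 differed between WT-Bmal1 and EV (11.2%) and 1501 between dHLH-Bmal1 and EV (10.9%). Leaving out 1 library of the groups compared gave 510 to 547 for the former, with each of EV replicates 1 and 2 and WT-Bmal1 replicates 1 and 2 lowering the count, and 606 (without EV replicate 1), 262 (without EV replicate 2), 1057 and 2016 (without dHLH-Bmal1 replicate 1 or 2) for the latter.

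The promoter windows of the called clock genes are shown where they held a clock element, so that the elements can be seen beside the direction of the gene. The windows are RefSeq sequences on GRCm38.p6 running from 250 bases before to 50 bases after a start site, and were searched on both strands for CACGTG (the E-box), CACGTT (the E′-box, which reads AACGTG on the other strand), AANT directly followed by AGGTCA (the ROR element) and TTANGTAA (the D-box). The matches in capitals do not overlap each other. CACGTG was in both windows of Tef, 127 and 138 bases before the start, in the window of the clock output gene Tspan4, 51 bases before it, and in the window of Cry1, 60 bases before it, next to a CACGTT match 79 bases before it. A CACGTT match lay 28 bases before the start of Nr1d1. Per3 had a pair of TTANGTAA matches, 205 and 158 bases before its start, and Arntl a ROR element match 28 bases after its own.
Tef, chr15:81802423-81802722, plus strand: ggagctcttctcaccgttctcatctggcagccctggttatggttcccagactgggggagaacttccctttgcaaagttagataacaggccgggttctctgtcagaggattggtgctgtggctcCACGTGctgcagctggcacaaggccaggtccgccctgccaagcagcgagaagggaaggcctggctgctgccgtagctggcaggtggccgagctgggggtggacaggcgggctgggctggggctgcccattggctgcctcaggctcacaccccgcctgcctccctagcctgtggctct
Tef, chr15:81811164-81811463, plus strand: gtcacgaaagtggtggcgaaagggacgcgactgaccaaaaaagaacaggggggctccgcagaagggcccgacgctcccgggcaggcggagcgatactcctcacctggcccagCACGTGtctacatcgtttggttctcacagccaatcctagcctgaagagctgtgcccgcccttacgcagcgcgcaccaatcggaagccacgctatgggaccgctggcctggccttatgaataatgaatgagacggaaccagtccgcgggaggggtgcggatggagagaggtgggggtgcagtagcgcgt
Tspan4, chr7:141476130-141476429, plus strand: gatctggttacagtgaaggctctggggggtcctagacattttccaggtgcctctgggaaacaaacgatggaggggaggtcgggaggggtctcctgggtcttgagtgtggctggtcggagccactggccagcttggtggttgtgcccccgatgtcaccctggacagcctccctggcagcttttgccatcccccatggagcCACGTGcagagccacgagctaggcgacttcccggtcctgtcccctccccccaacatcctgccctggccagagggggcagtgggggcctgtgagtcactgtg
Nr1d1, chr11:98775328-98775627, minus strand: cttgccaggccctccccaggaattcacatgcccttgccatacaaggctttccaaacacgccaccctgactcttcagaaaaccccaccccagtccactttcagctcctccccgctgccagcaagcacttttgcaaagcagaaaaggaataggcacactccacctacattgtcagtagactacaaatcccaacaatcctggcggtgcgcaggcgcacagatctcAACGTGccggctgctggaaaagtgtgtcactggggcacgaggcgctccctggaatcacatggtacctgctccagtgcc
Per3, chr4:151044616-151044915, minus strand: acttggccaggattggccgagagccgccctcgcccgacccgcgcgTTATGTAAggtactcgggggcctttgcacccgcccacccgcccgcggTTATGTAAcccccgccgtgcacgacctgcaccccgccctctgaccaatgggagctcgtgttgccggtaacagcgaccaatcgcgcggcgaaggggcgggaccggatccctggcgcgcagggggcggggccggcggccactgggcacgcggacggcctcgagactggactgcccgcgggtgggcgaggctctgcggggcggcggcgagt
Cry1, chr10:85185005-85185304, minus strand: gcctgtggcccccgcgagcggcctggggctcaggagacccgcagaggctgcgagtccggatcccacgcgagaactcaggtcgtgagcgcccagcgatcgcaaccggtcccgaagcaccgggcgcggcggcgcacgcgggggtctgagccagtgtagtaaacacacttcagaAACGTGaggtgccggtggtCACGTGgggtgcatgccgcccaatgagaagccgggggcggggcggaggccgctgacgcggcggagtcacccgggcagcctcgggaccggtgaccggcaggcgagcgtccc
Arntl, chr7:113207261-113207560, plus strand: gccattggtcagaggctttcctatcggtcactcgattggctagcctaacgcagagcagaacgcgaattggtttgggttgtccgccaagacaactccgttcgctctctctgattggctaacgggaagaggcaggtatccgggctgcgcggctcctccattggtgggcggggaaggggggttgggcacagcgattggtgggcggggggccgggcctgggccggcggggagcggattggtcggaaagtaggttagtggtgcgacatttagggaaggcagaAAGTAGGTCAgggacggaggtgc

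Over all 32851 promoter windows of the table, CACGTG was in 7.15%, CACGTT in 4.68%, the ROR element in 0.219% and TTANGTAA in 2.32%. A gene can have several windows, and of 9571 genes tested that had one, 11.9% held CACGTG in at least 1 window. A match is a description, not a binding site or a cause. The windows of Dbp, Nr1d2 and Nfil3 held none of these strings, which says nothing of elements elsewhere in those genes. Per2 was not matched in the table. Windows were matched by symbol for 40 of the 61 higher and 45 of the 60 lower genes, under 80% of either group, so a comparison of the groups' shares is void and none is given.

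Among 12 tested clock output genes, 1 passed. Tspan4, a tetraspanin, was at 89.3 and 86.7 CPM with WT-Bmal1 and 55.5 and 66.0 CPM with dHLH-Bmal1, with EV at 95.1 and 90.9 CPM, near WT-Bmal1. The WT-Bmal1 libraries were above the dHLH-Bmal1 libraries by 0.54 on the log2 scale (SE 0.10, edgeR adjusted p = 0.0208), a call that was lost without WT-Bmal1 replicate 1 (adjusted p = 0.217), WT-Bmal1 replicate 2 (0.117) or dHLH-Bmal1 replicate 1 (0.0669). Por, the electron donor of the cytochrome P450 enzymes, was at 81.2 and 78.3 CPM against 58.3 and 62.1 CPM, and missed the threshold (log2 fold change 0.41, SE 0.09, edgeR adjusted p = 0.0559), passing without dHLH-Bmal1 replicate 2 (0.0349) and with no filter on low counts (0.0149). Klf9, Klf10 and Pfkfb3, none of which passed, had values of 0.43, 0.71 and 0.37 (SEs 0.12, 0.25 and 0.26, adjusted p from 0.122 to 0.619), Wee1, Nampt, Usp2, Tsc22d3, Alas1 and Noct had values between -0.08 and 0.20, and Lonrf3 was at -0.33 (adjusted p = 0.306). The list's median was 0.19. None of the 12 kinases and ubiquitin ligases that act on clock proteins passed, and their values ran from -0.21 to 0.26 with a median of -0.03. Of 13 listed detoxification targets of the PAR bZIP factors, 6 were tested, among them Por, and none passed (median 0.14).

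Reads of overlapping genes bear on some of these rows. Per3 lies within Camta1, a transcription activator gene on the same strand of chromosome 4, with 41014 shared bases, so strand cannot separate their reads. Camta1 was at 4.45 and 5.51 CPM with WT-Bmal1 against 4.19 and 4.07 CPM with dHLH-Bmal1 (0.27, SE 0.34, edgeR adjusted p = 0.818). Nr1d1 and Thra, the thyroid hormone receptor alpha gene on the opposite strand of chromosome 11, share 1075 bases, and Dbp shares 737 bases with Sphk2, a sphingosine kinase gene on the opposite strand. Thra and Sphk2 passed in the other direction: Thra changed by -0.61 (82.1 and 93.8 CPM with WT-Bmal1 against 137 and 131 CPM, edgeR adjusted p = 0.0131) and Sphk2 by -0.57 (mean 26.7 against 39.5 CPM, adjusted p = 0.0325). Tspan4 shares 292 bases with Chid1 on the opposite strand, which did not pass (-0.14, adjusted p = 0.756), and Arntl and Tef overlap antisense genes that were not tested. Whether counting used the strand is not given in the sources used here, and without strand the reads of such partners cannot be told apart.

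Outside the clock lists, genes higher with WT-Bmal1 included Inpp4b, Col15a1, Mgp, Spry1, Aldh1a1 and Ifit1. Inpp4b, a phosphatase of phosphoinositides, was at 13.1 and 10.1 CPM with WT-Bmal1, 2.29 and 1.43 CPM with dHLH-Bmal1 and 1.20 and 1.15 CPM with EV. The WT-Bmal1 libraries stood apart from the other 4, and the difference between the constructs was 2.62 (SE 0.32, edgeR adjusted p = 0.0012). Col15a1, a basement membrane collagen chain, was at 22.1 and 25.7 CPM with WT-Bmal1, 5.88 and 4.18 CPM with dHLH-Bmal1 and 5.79 and 4.49 CPM with EV, a log2 fold change of 2.24 (SE 0.23, edgeR adjusted p = 0.000158). It was 4.76-fold higher with WT-Bmal1 in mean CPM, and dHLH-Bmal1 and EV overlapped. Inpp4b and Col15a1 passed without each of the 6 libraries in turn.

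Spry1, a feedback inhibitor of receptor tyrosine kinase signalling, was at 14.1 and 14.0 CPM with WT-Bmal1, 5.18 and 5.83 CPM with dHLH-Bmal1 and 2.85 and 4.39 CPM with EV (log2 fold change 1.35, SE 0.24, edgeR adjusted p = 0.0164). Mgp, an inhibitor of calcification found in matrix, was at 10.5 and 7.30 CPM with WT-Bmal1, 2.89 and 1.43 CPM with dHLH-Bmal1 and 0.552 and 0.764 CPM with EV (2.03, SE 0.38, adjusted p = 0.0197). In both genes dHLH-Bmal1 lay between EV and WT-Bmal1. Aldh1a1, a retinal dehydrogenase, had a different order, with 5.61 and 4.97 CPM with WT-Bmal1, 0.598 and 1.87 CPM with dHLH-Bmal1 and 4.41 and 3.53 CPM with EV. It was the dHLH-Bmal1 libraries that stood apart (2.12, SE 0.45, edgeR adjusted p = 0.0384). Ifit1, an interferon-stimulated gene, was at 12.7 and 10.3 CPM against 4.88 and 4.62 CPM (1.27, SE 0.24, adjusted p = 0.0208). Without WT-Bmal1 replicate 1 the adjusted p was 0.147 for Spry1, 0.375 for Mgp, 0.307 for Aldh1a1 and 0.289 for Ifit1, and without WT-Bmal1 replicate 2 it was 0.111, 0.0606, 0.154 and 0.0606. Without dHLH-Bmal1 replicate 1, Spry1 was at 0.0520 and Aldh1a1 at 0.123, and without EV replicate 1 or 2 Aldh1a1 was at 0.0659 or 0.0612.

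The genes lower with WT-Bmal1 outside the clock lists included Kcna1, Ccnjl, Gstm7, Osbp2, Syt13 and Fgd3. Kcna1, a voltage-gated potassium channel, was at 2.42 and 0.953 CPM with WT-Bmal1, 7.07 and 8.03 CPM with dHLH-Bmal1 and 5.15 and 3.34 CPM with EV, a log2 fold change of -2.14 (SE 0.39, edgeR adjusted p = 0.0197) that did not pass without WT-Bmal1 replicate 2 (adjusted p = 0.167). Ccnjl, a cyclin-like gene, was at 7.35 and 9.21 CPM with WT-Bmal1, 25.4 and 22.9 CPM with dHLH-Bmal1 and 16.1 and 15.8 CPM with EV. As with Cry1, EV lay between the constructs, and the change was -1.55 (SE 0.17, edgeR adjusted p = 0.000528). Gstm7, a glutathione transferase, was at 12.1 and 11.5 CPM against 29.5 and 39.4 CPM with dHLH-Bmal1 and 16.5 and 22.2 CPM with EV (-1.54, SE 0.18, adjusted p = 0.000682).

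Osbp2, an oxysterol-binding protein, was at 7.25 and 10.4 CPM with WT-Bmal1, 24.0 and 24.3 CPM with dHLH-Bmal1 and 6.71 and 6.21 CPM with EV. Its dHLH-Bmal1 libraries were the high ones, and WT-Bmal1 was close to EV (-1.46 between the constructs, SE 0.20, edgeR adjusted p = 0.00248). Syt13, a synaptotagmin, was at 13.3 and 18.5 CPM against 36.1 and 33.4 CPM (-1.13, SE 0.15, adjusted p = 0.00213). Fgd3, an exchange factor of Cdc42, was at 6.96 and 7.52 CPM against 16 and 17.8 CPM (-1.22, SE 0.19, adjusted p = 0.00546, or 0.0759 without WT-Bmal1 replicate 1), and Cdc42ep3, an effector of Cdc42, was at 3.67 and 2.75 CPM against 6.88 and 10.1 CPM (-1.39, SE 0.30, edgeR adjusted p = 0.0443). The call in Cdc42ep3 was lost without any of 5 of the 6 libraries, with adjusted p of 0.0509 and 0.0580 without EV replicate 1 or 2, 0.168 and 0.299 without WT-Bmal1 replicate 1 or 2, and 0.101 without dHLH-Bmal1 replicate 2. A130023I24Rik and Gm9844, which have no assigned role, changed by -1.68 and -1.60 (SEs 0.23 and 0.22, adjusted p = 0.00248 for each).

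**Figure D3:**
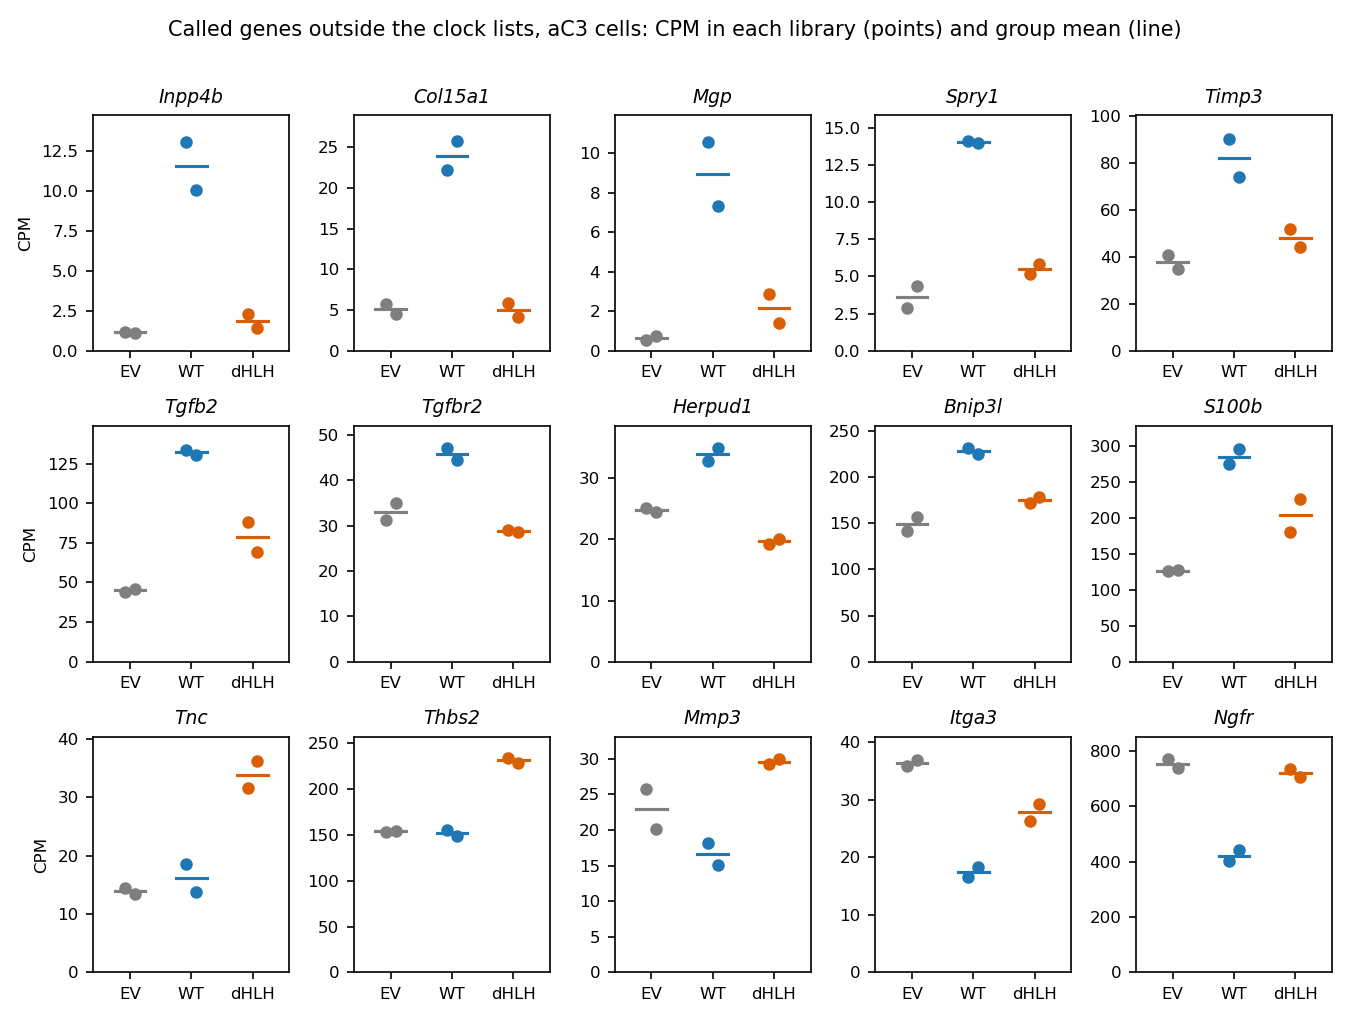
CPM (y axis, from 0) of 15 called genes outside the clock lists in each of the 6 aC3 libraries (points) with the mean of each group (line). In Inpp4b and Col15a1 only the WT-Bmal1 libraries are high, in Tnc and Thbs2 only the dHLH-Bmal1 libraries are high, and in Ngfr only the WT-Bmal1 libraries are low.

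Genes of the extracellular matrix changed in both directions. Of 23 mesenchymal and matrix genes tested, 2 were higher with WT-Bmal1 (Mgp and Timp3) and 4 were lower (Tnc, Thbs2, Fbln2 and Mmp3), and the list's median was 0.15. Over all genes tested, 0.442% were higher and 0.435% lower. Timp3, an inhibitor of metalloproteinases, was at 90.0 and 73.9 CPM with WT-Bmal1 and 51.8 and 44.0 CPM with dHLH-Bmal1 (0.77, SE 0.13, edgeR adjusted p = 0.00919). Tnc, the adhesion-modulating glycoprotein tenascin C, was at 18.7 and 13.9 CPM with WT-Bmal1, 31.6 and 36.3 CPM with dHLH-Bmal1 and 14.5 and 13.5 CPM with EV, so that dHLH-Bmal1 was the high group (-1.05, SE 0.16, adjusted p = 0.00471). Thbs2, a thrombospondin, had the same order, at 155 and 149, 234 and 228, and 153 and 155 CPM (-0.60, SE 0.08, adjusted p = 0.00213). The metalloproteinase Mmp3 was at 18.2 and 15.1 CPM against 29.3 and 29.9 CPM with dHLH-Bmal1 (-0.83, SE 0.15, adjusted p = 0.0197), and Fbln2, a fibulin, at 3.67 and 2.75 CPM against 8.07 and 9.90 CPM (-1.47, SE 0.28, edgeR adjusted p = 0.0218). Chosen after their values were seen, the neighbouring collagenase Mmp1a and the aggrecanase Adamts4 also passed, with -0.90 and -0.83 (SEs 0.15 and 0.12, adjusted p = 0.0123 and 0.00287). Fn1, the fibronectin gene, had a log2 fold change of 0.39 and did not pass (adjusted p = 0.0501).

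Read against the same shares of all genes, 1 of 18 collagen chains was called in each direction: Col15a1 was higher, Col5a3 was lower (71.1 and 77.7 CPM against 114 and 118 CPM, -0.65, SE 0.11, edgeR adjusted p = 0.0107) and the median was -0.17. Of 19 integrins and laminins, Itga1, the collagen receptor subunit, was higher (113 and 109 CPM against 82.7 and 82.8 CPM, 0.43, SE 0.08, adjusted p = 0.0308) and Itga3, a laminin receptor subunit, was lower (16.6 and 18.3 CPM against 26.4 and 29.4 CPM, -0.67, SE 0.13, adjusted p = 0.0218). In Itga3 both constructs were below EV, which was at 36.0 and 36.9 CPM. Of the calls in these 3 lists, that of Col15a1 held without each library, and those of Mgp, Timp3, Tnc, Thbs2, Fbln2, Mmp3, Col5a3, Itga1 and Itga3 were lost without at least 1 WT-Bmal1 library. Without WT-Bmal1 replicate 1 the adjusted p was 0.144 for Timp3, 0.0748 for Mmp3, 0.101 for Fbln2, 0.169 for Col5a3, 0.329 for Itga1 and 0.296 for Itga3. Without WT-Bmal1 replicate 2 it was 0.0691 for Tnc, 0.0628 for Thbs2, 0.211 for Mmp3, 0.204 for Fbln2, 0.0569 for Col5a3, 0.164 for Itga1 and 0.108 for Itga3. Without EV replicate 1 or 2 Itga1 was at 0.0685 or 0.0698, and without EV replicate 2 Itga3 was at 0.0505.

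In the TGF-beta and BMP pathway, 2 of 18 genes passed, both higher with WT-Bmal1, as did 0.442% of all genes tested. The ligand gene Tgfb2 was at 133 and 131 CPM with WT-Bmal1, 88.0 and 68.9 CPM with dHLH-Bmal1 and 44.1 and 45.7 CPM with EV (0.75, SE 0.11, edgeR adjusted p = 0.00305, or 0.0507 without WT-Bmal1 replicate 1). The receptor gene Tgfbr2 was at 47.2 and 44.6 CPM with WT-Bmal1, 29.0 and 28.6 CPM with dHLH-Bmal1 and 31.2 and 35 CPM with EV (0.67, SE 0.11, adjusted p = 0.0129, or 0.133 and 0.0606 without WT-Bmal1 replicate 1 or 2). Tgfb2 rose in steps from EV to dHLH-Bmal1 to WT-Bmal1, whereas in Tgfbr2 only WT-Bmal1 was high. Among the other ligands and receptors, Tgfb1, Tgfb3 and Tgfbr1 had values of -0.16, 0.17 and 0.19 and did not pass (adjusted p from 0.776 to 0.850). The values of the list ran from -0.29 to 1.90, with 15 positive, 3 negative and a median of 0.18. The largest belonged to a gene that did not pass. At an unadjusted edgeR p under 0.05 there were 6 of the 18 genes.

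Among neural crest and melanocyte genes, Ngfr, the nerve growth factor receptor that marks the neural crest state of melanoma, was at 402 and 440 CPM with WT-Bmal1, 735 and 707 CPM with dHLH-Bmal1 and 770 and 739 CPM with EV. Only the WT-Bmal1 libraries were low (-0.78, SE 0.09, edgeR adjusted p = 0.000528), and the call held without each of the 6 libraries in turn. S100b, a calcium-binding melanoma marker, was at 275 and 296 CPM against 181 and 227 CPM with dHLH-Bmal1 and 126 and 127 CPM with EV (0.49, SE 0.10, adjusted p = 0.0366). That call was lost without any of 5 of the 6 libraries, with adjusted p of 0.0699 and 0.0749 without EV replicate 1 or 2, 0.181 and 0.306 without WT-Bmal1 replicate 1 or 2, and 0.0669 without dHLH-Bmal1 replicate 1. Ngfr was the sole call among 13 SOX and neural crest genes (median -0.06), and S100b among 7 pigmentation genes tested of 19 listed (median 0.08).

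Sox9, Sox10, Myh9 and Hif1a, which the study follows beside the clock genes, did not pass in this comparison. Sox9, a transcription factor of neural crest and mesenchyme, was at 9.38 and 10.4 CPM with WT-Bmal1 and 5.68 and 6.71 CPM with dHLH-Bmal1 (0.67, SE 0.25, edgeR adjusted p = 0.266), without overlap, as in 41.1% of all genes. Sox10 was at 560 and 569 CPM against 620 and 564 CPM (-0.07, SE 0.09, adjusted p = 0.813) and Myh9, the non-muscle myosin heavy chain, at 555 and 553 CPM against 624 and 576 CPM (-0.11, SE 0.09, adjusted p = 0.660). Hif1a, the oxygen-regulated HIF subunit, was at 120 and 112 CPM against 92.8 and 87.4 CPM (0.36, SE 0.09, edgeR adjusted p = 0.0698), and it passed with no filter on low counts (adjusted p = 0.0207). Of 33 hypoxia response genes, 1 passed (0.877% of all genes tested did), the mitophagy receptor Bnip3l, at 232 and 225 CPM with WT-Bmal1, 173 and 178 CPM with dHLH-Bmal1 and 142 and 157 CPM with EV (0.38, SE 0.08, adjusted p = 0.0479). The median of the hypoxia list was 0.11 (23 positive and 10 negative values). Its largest value was that of Ndrg1, at 16.6 and 18.5 CPM with WT-Bmal1 and 12.7 and 8.14 CPM with dHLH-Bmal1. Ndrg1 did not pass (0.75, SE 0.21, edgeR adjusted p = 0.144). Vegfa, Bnip3, Pdk1 and Hk2 act in vessel growth, mitophagy and glucose use and are named here with their values known. They had values of -0.07, -0.20, 0.07 and 0.0050 and did not pass. The call in Bnip3l was lost without any of 5 of the 6 libraries, with adjusted p from 0.0660 without dHLH-Bmal1 replicate 1 to 0.446 without WT-Bmal1 replicate 1. Of 18 glycolysis genes none passed (median -0.00095), nor did any of 9 HIF subunits and oxygen sensors (median 0.20). Whether the lists' small medians differ from that of all genes was not tested.

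Of 28 lists outside the clock and the marker lists, 16 had no call and 12 had at least 1, where 0.877% of all genes tested were called. The medians of these lists ran from -0.17 to 0.20. No gene passed among 16 MRTF-SRF targets (median -0.08, values from -0.32 to 0.23), 11 YAP and TEAD targets (-0.05), 10 AP-1 subunits (-0.16), 9 EMT transcription factors (0.17), 6 Wnt targets (0.03), 26 cell cycle genes (0.06), 21 sterol and fatty acid synthesis genes (-0.08), 21 oxidative phosphorylation genes (0.10), 16 lysosome and autophagy genes (-0.02), 11 genes of myosin II and Bmal1 partners (0.03), 10 MHC class I genes (0.0060), 10 cytokines and chemokines (0.03) or 11 NRF2 targets and metallothioneins (-0.14). Single calls stood in 5 further lists. Spry1 was called among 13 MAPK feedback genes (median 0.11) and Ifit1 among 16 interferon-stimulated genes (median 0.17). Egr1, an immediate early zinc finger factor, was at 15.1 and 15.2 CPM with WT-Bmal1 against 8.07 and 7.59 CPM with dHLH-Bmal1 (0.95, SE 0.21, edgeR adjusted p = 0.0476) among 13 immediate early genes (median 0.19). Herpud1, a component of endoplasmic reticulum protein degradation, was at 32.9 and 34.9 CPM against 19.2 and 20.1 CPM (0.79, SE 0.12, adjusted p = 0.0059) among 15 unfolded protein response genes (median 0.0027). Atf5, a stress-responsive bZIP factor, was at 98.5 and 93.7 CPM against 142 and 125 CPM (-0.47, SE 0.10, adjusted p = 0.0341) among 16 integrated stress response genes (median -0.12). Without WT-Bmal1 replicate 1 the adjusted p was 0.273 for Egr1, 0.0518 for Herpud1 and 0.235 for Atf5, and without WT-Bmal1 replicate 2 it was 0.229, 0.0817 and 0.296. Egr1 was also lost without dHLH-Bmal1 replicate 1 (0.0825) or 2 (0.0736), and Atf5 without EV replicate 1 (0.0634) or 2 (0.0538) or dHLH-Bmal1 replicate 1 (0.106).

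**Figure D4:**
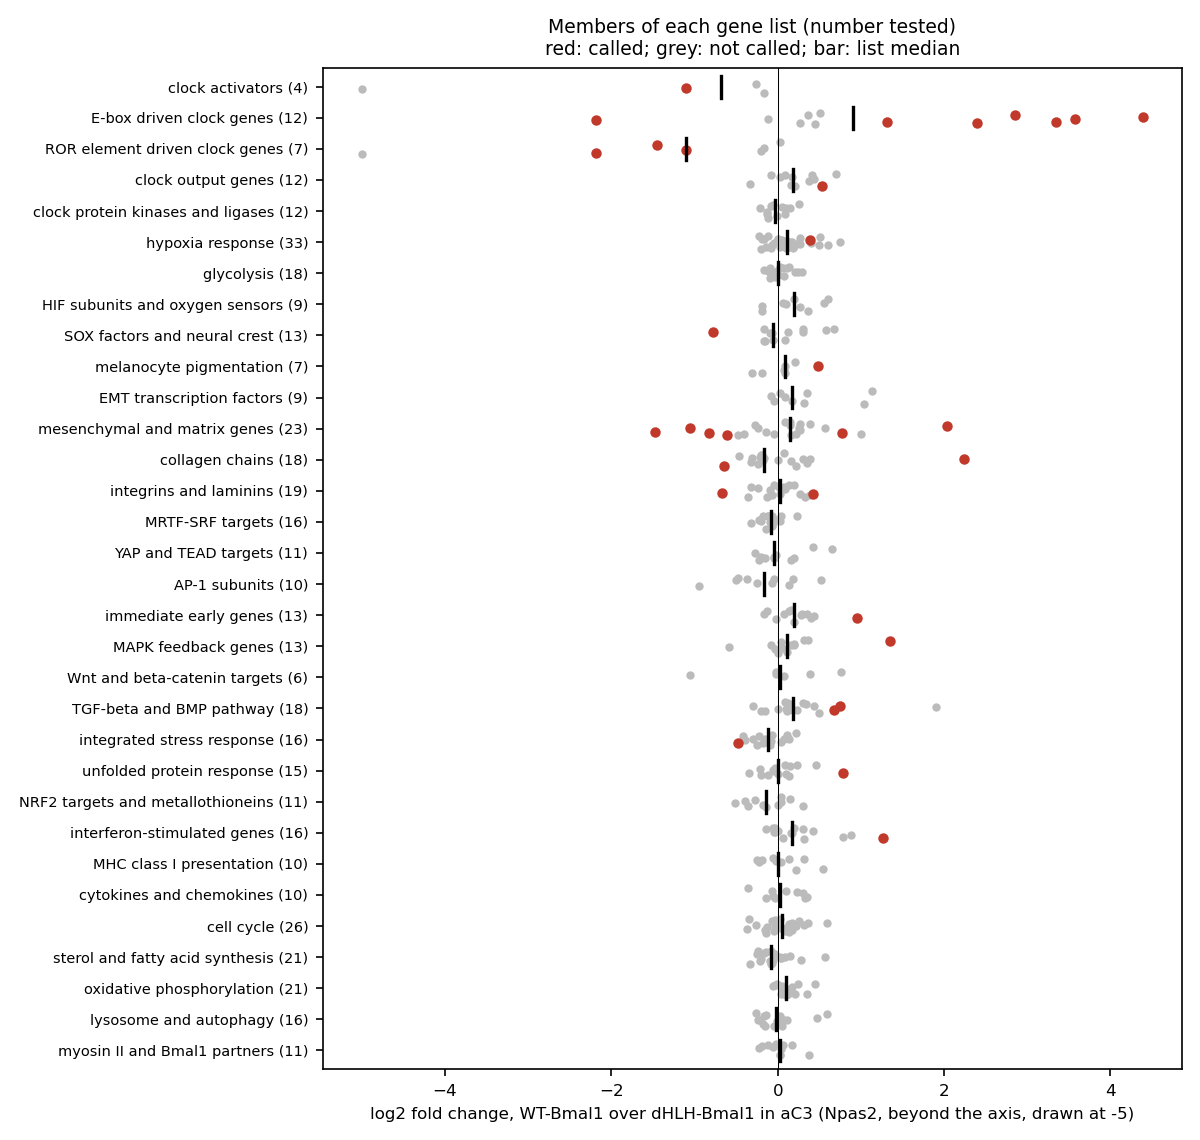
Log2 fold change of WT-Bmal1 over dHLH-Bmal1 (x axis) of the tested members of each gene list (rows, number tested in parentheses), with called genes in red, others in grey and the list median as a bar; Npas2 is drawn at -5. The E-box driven and ROR element driven clock genes spread far to either side of 0, with medians of 0.91 and -1.10. The clock activators have a median of -0.69. The medians of the remaining lists lie between -0.17 and 0.20. Of these, the mesenchymal and matrix list has 23 tested genes with 2 called higher and 4 called lower, and the others have few or no called genes.

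Some further called genes, named here after their values were seen, had smaller changes. Txnip, an inhibitor of thioredoxin, was at 40.2 and 36.0 CPM against 21.4 and 20.2 CPM (0.87, SE 0.13, edgeR adjusted p = 0.00485), and Apod, an apolipoprotein, at 43.8 and 39.0 CPM against 24.2 and 26.1 CPM (0.72, SE 0.12, adjusted p = 0.0112). Anxa5, an annexin, was lower, at 413 and 439 CPM against 642 and 708 CPM (-0.66, SE 0.09, adjusted p = 0.00305). So was Srm, the spermidine synthase gene, at 42.5 and 46.3 CPM against 61.9 and 69.8 CPM (-0.57, SE 0.10, edgeR adjusted p = 0.0164). In Srm both constructs were below EV, which was at 87.6 and 89.6 CPM.

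A few rows had counts at or near 0 in a group, where the fitted fold change depends on the prior count. Zfp488, a transcriptional co-repressor gene, had 20 and 11 counts with WT-Bmal1, none with dHLH-Bmal1 and 12 and 17 with EV, at least 9.99-fold higher with wild-type Bmal1 (edgeR adjusted p = 0.0333). Gda, the guanine deaminase gene, had 15 and 12 counts with WT-Bmal1, 1 and 0 with dHLH-Bmal1 and 83 and 92 with EV, a ratio of 26.1 between the constructs (95% counting interval 4.30 to 1069, adjusted p = 0.0218). The noncoding Gm30570 had 0 and 1 counts with WT-Bmal1 against 27 and 12 with dHLH-Bmal1, a ratio of 40.3 towards dHLH-Bmal1 (6.83 to 1633, edgeR adjusted p = 0.0337, lost without 5 of the 6 libraries, with adjusted p from 0.0698 without EV replicate 2 to 0.404 without WT-Bmal1 replicate 1). Reads of near-identical copies can be split in counting, which makes the rows of Sap18b (35 and 78 counts with WT-Bmal1, none in the other 4 libraries, lost without WT-Bmal1 replicate 2 at 0.0981), the ribosomal protein copy Rps12-ps3 (1.39, lost without WT-Bmal1 replicate 1 at 0.120 or 2 at 0.0820) and the pseudogene Gm12338 (1.48) uncertain. Rps12-ps3 was at 279 and 650 CPM in the EV libraries, so that its EV libraries differed widely from each other.

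To see whether the direct difference was the same in cells with their own Bmal1, it was compared with that in YUMM2.1 cells carrying a control hairpin (shNC) and in YUMM1.7, another mouse melanoma line with mutant Braf and without Cdkn2a, in a fit of 18 libraries. Each group again had 2 libraries, which the study calls biological duplicates for the shNC cells. YUMM2.1 libraries with their own Bmal1 and no hairpin were not used here, since earlier results of these data put the labels of some of them in doubt. The shNC cells differ from aC3 in their own Bmal1, the hairpin with its drug selection and in not being that clone, and YUMM1.7 is another line, so these cannot be told apart. The totals were 6347481 to 14718654 counts in the WT-Bmal1 and dHLH-Bmal1 shNC libraries, where the dHLH-Bmal1 replicates were the deepest and the shallowest, and 9554182 to 10972372 in those of YUMM1.7. WT-Bmal1 and dHLH-Bmal1 differed in 1155 genes in the shNC cells (7.52% of 15361 tested) and in 84 genes in YUMM1.7 (0.547%). The size of the direct difference itself was unequal between aC3 and shNC cells in 876 genes (5.70%) and between aC3 and YUMM1.7 in 27 genes (0.176%). Without single libraries these counts ran from 322 (without shNC dHLH-Bmal1 replicate 1) to 1227 (without shNC WT-Bmal1 replicate 1), with 416 and 558 without aC3 WT-Bmal1 replicate 1 or 2 and 475 without shNC WT-Bmal1 replicate 2, and from 15 (without aC3 WT-Bmal1 replicate 2 or YUMM1.7 dHLH-Bmal1 replicate 2) to 65 (without aC3 dHLH-Bmal1 replicate 2).

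Nr1d1, Nr1d2 and Per3 changed in the same direction in all 3 settings, by more in aC3 than in either of the others. Nr1d2 had 782 and 748 counts with WT-Bmal1 in YUMM1.7, where dHLH-Bmal1 had 212 and 261, and 455 and 577 against 391 and 191 in the shNC cells, with log2 fold changes of 1.57 and 1.18. The change in aC3 exceeded these by 2.01 (edgeR adjusted p = 4.4e-06) and 2.40 (adjusted p = 3.45e-08). In Nr1d1 the values were 1.99 in YUMM1.7 and 1.32 in the shNC cells, exceeded in aC3 by 2.40 (adjusted p = 0.0138) and 3.08 (adjusted p = 0.000148), and in Per3 they were 1.67 and 0.98, exceeded by 1.68 (adjusted p = 0.0213) and 2.37 (adjusted p = 0.000154). Dbp changed by 1.74 in YUMM1.7 and 1.09 in the shNC cells, and aC3 exceeded the latter by 1.77 (adjusted p = 0.00149) but the former by 1.12 without passing (adjusted p = 0.232). Cry1 changed by -1.56 and -0.89, and aC3 differed from the shNC cells by -1.29 (adjusted p = 0.00032) and from YUMM1.7 by -0.62 without passing (adjusted p = 0.406). Tef was at 1.09 in YUMM1.7 and 0.78 in the shNC cells against 1.31 in aC3, with differences of 0.22 and 0.53 that did not pass (adjusted p = 0.888 and 0.0571).

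Sox10, the SOX factor of the melanocyte lineage, had in the shNC cells 726 and 840 counts with WT-Bmal1 and 327 and 161 with the dHLH construct, a log2 fold change of 2.04 (SE 0.12, edgeR adjusted p = 2.84e-10). The value in aC3 differed from that by -2.11 (edgeR adjusted p = 2.79e-08). In this fit Sox10 was at 549 to 605 CPM in the 4 aC3 libraries and at 23.2 to 101.5 CPM in the shNC cells, and Sox9 at 5.54 to 10.2 CPM in aC3 and 324 to 374 CPM in the shNC cells. The effect on Sox9 was 0.04 in the shNC cells and differed from that in aC3 by 0.64 (adjusted p = 0.0350), and for Hif1a it was -0.09 and differed by 0.46 (adjusted p = 0.0222). In Myh9 the difference of -0.23 did not pass (adjusted p = 0.187). Against YUMM1.7 none of the 4 differences passed (adjusted p from 0.353 to 1). Sox10 was almost absent from YUMM1.7, at 5 and 11 counts for the wild-type construct against 8 and 1 for the mutant. The Sox10 difference of -0.75 had an SE of 0.59, so its failure to pass does not show a similar effect there.

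**Figure D5:**
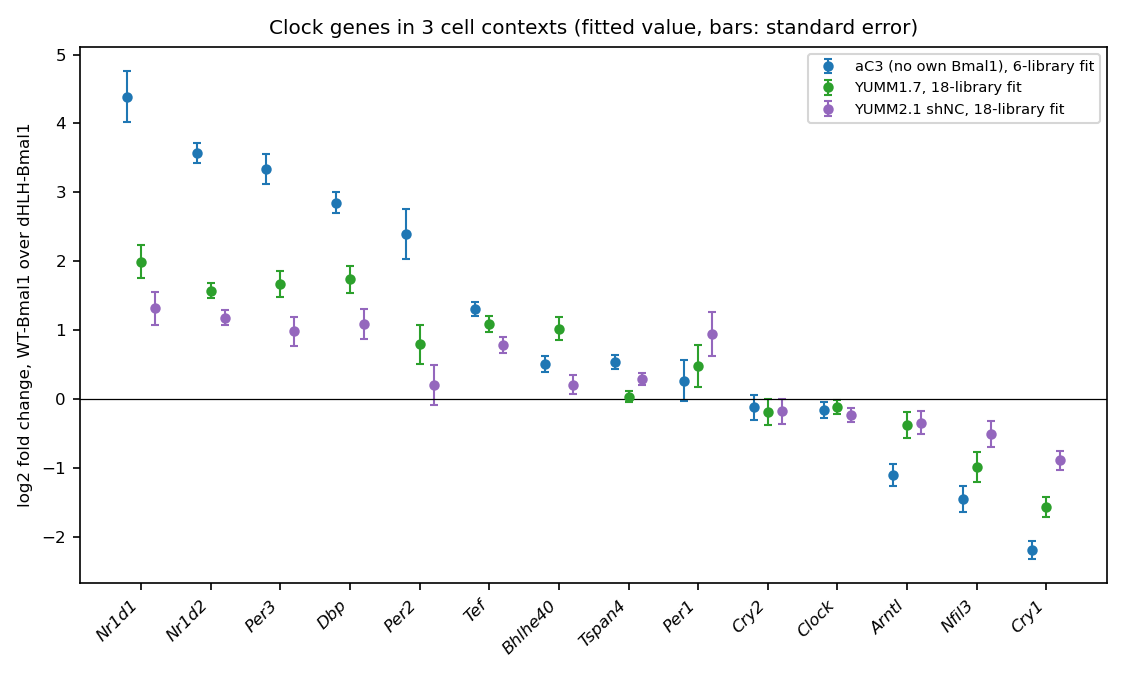
Log2 fold change of WT-Bmal1 over dHLH-Bmal1 (y axis, error bars are the SE) of 14 clock genes in aC3, YUMM1.7 and YUMM2.1 shNC cells, 2 libraries a group, the aC3 values from the fit of 6 libraries and the others from the fit of 18. For Nr1d1, Nr1d2, Per3, Dbp, Per2 and Tef the order is aC3, then YUMM1.7, then shNC, and for Cry1, Nfil3 and Arntl the aC3 values are the most negative, down to -2.19 for Cry1.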

How the data were processed

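QuantSeq FWD 3′ libraries were made from 100 ng of DNaseI-treated RNA and read as single 75 bp reads. Per the labels and the study's methods, the authors aligned reads with bowtie2 to mm10 and deposited expected counts per gene from RSEM with an Ensembl annotation, as whole numbers. The Ensembl release, the strand setting of counting and the harvest time are not given in the sources used here.

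Genes were kept by filterByExpr, scaled by TMM and tested with edgeR 4.0.16 (quasi-likelihood test, R 4.3.3) in a fit of the 6 aC3 libraries, in which EV shares the estimate of spread. Differences of the effect between cells came from a fit of 18 libraries. P-values were adjusted by Benjamini-Hochberg over all genes tested, and a gene was called at an adjusted p under 0.05. CPM is counts per 1000000 of the scaled library size. With 2 libraries against 2 an exact permutation test cannot go below p = 0.333. At totals of 9347467 to 11006516 counts, intervals and floors of 3 counts cover counting error only. Named genes were the members of the 4 clock lists, Sox9, Sox10, Hif1a and Myh9, the called members of the other lists (with up to 2 more by smallest p where at most 1 was called), the 15 called genes with the largest change in each direction (mean of at least 10 counts, no overlap of groups) and, for differences between cells, clock genes and the 5 largest called differences; further genes are said to be chosen after their values were seen. Members and lists were chosen with earlier results of these data known. Alternatives were DESeq2 1.42.0 and its size factors, other filters, other sets of libraries, a replicate block and a minimum log2 fold change of 1. The fitting steps were tested on simulated data.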

Additional observations from a re-analysis of the deposited data

Results flagged for a closer look

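The difference between WT-Bmal1 and dHLH-Bmal1 was itself unequal between aC3 and other cells in the genes below, by the interaction test of edgeR over 15361 genes at an adjusted p under 0.05. On the log2 scale, the effect in aC3 minus that in YUMM2.1 shNC cells was 3.08 for Nr1d1, 2.40 for Nr1d2, 2.37 for Per3, 2.2 for Per2, 1.77 for Dbp and -1.29 for Cry1. Among clock outputs it was 1.57 for Klf10, 0.84 for Klf9 and 0.94 for Tsc22d3. The effect of these outputs was negative in the shNC cells, at -0.86 for Klf10 (edgeR adjusted p = 0.0593), -0.41 for Klf9 (0.0102) and -0.73 for Tsc22d3 (0.00605). In aC3 it was 0.71, 0.43 and 0.20, and none of these passed. For SOX factors and Hif1a it was -2.11 for Sox10, 0.64 for Sox9 and 0.46 for Hif1a. The effect in aC3 minus that in YUMM1.7 was 2.40 for Nr1d1, 2.01 for Nr1d2 and 1.68 for Per3.

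Among genes outside the clock lists, the 5 with the largest differences from the shNC cells had groups at or near 0 counts, where the fitted value depends on the prior count. They were 12.82 for Gm12191, 10.87 for Naaladl2, 10.03 for Gm10221, 9.15 for Tnfsfm13 and -8.94 for Gm8319. Gm12191 had 23 and 1 counts with WT-Bmal1 and none with dHLH-Bmal1 in aC3, and 1 and 0 against 148 and 0 in the shNC cells, so single libraries carried it. Gm10221 had 207 and 71 against 134 and 98 counts in aC3 and 0 and 0 against 133 and 86 in the shNC cells. Against YUMM1.7 the values were -7.05 for Syt13, -6.52 for Cth, 4.40 for Scara5, 2.92 for Tmprss11a and 2.90 for Inpp4b. Syt13 had 6 and 11 against 0 and 0 counts in YUMM1.7. In aC3, Cth had 0 and 0 against 8 and 5 counts, and Scara5 had 8 and 9 against 0 and 1. Tmprss11a had 102 and 82 against 78 and 118 counts in aC3, and 48 and 167 against 773 and 875 in YUMM1.7. Inpp4b was well counted in both, with 135 and 95 against 23 and 13 counts in aC3 and 59 and 55 against 69 and 57 in YUMM1.7.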

How the results depend on the processing

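No named gene that passed in the main fit or in an alternative changed direction between them. Changes of sign in genes that did not pass, or in list medians, were not tracked. Of 45 called genes among 117 named and tested, 18 kept the call without each of the 6 aC3 libraries in turn, and 11 (Arntl, Col15a1, Cry1, Dbp, Inpp4b, Nfil3, Nr1d1, Nr1d2, Per3, Syt13 and Tef) kept it under every alternative other than the fold minimum. The count of 121 genes became 396 with no filter on low counts, 18 in a fit of 40 libraries and 37 with a minimum log2 fold change of 1, and was 135 with DESeq2. It ran from 31 (without WT-Bmal1 replicate 1) to 368 (without dHLH-Bmal1 replicate 2), with 39 without WT-Bmal1 replicate 2. The 40-library fit and the fold minimum gave 391 and 195 for WT-Bmal1 against EV (510 to 2271 without single libraries, 510 without EV replicate 2) and 160 and 165 for dHLH-Bmal1 against EV (262 to 2016, 262 without EV replicate 2). They gave 103 and 302 for the difference between aC3 and shNC cells (322 to 1227, 322 without shNC dHLH-Bmal1 replicate 1). For the difference between aC3 and YUMM1.7 the 40-library fit gave 10, DESeq2 46 and no filter 120 (15 to 65 without single libraries, 65 without aC3 dHLH-Bmal1 replicate 2). The causes were not tested. Same-numbered libraries deviated together little (correlations of 0.0618, 0.0248 and 0.0742), so the numbers were not taken to pair them; with a replicate block 280 genes were called, and 10 named genes gained a call, among them Npas2, Bhlhe40, Por and Hif1a. With no filter on low counts 15 named genes gained one. Of 462 list medians under alternatives, 82 moved beyond their spread. The share of E-box promoters was void, and a fit of 4 libraries could not be made for the EV comparisons. Hlf had too few counts to be tested.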
